A study of Homo sapiens with 88 samples.

Results

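NCI-H526 is an established human small cell lung cancer (SCLC) line, and it was set here against 8 other SCLC lines, all cultured with the vehicle DMSO. It was chosen by its POU2F3 and GFI1B signals in these same arrays, the 2 genes that mark it. Of the 88 arrays of the series, 6 were NCI-H526 under DMSO, with 2 arrays each at days 2, 4 and 7. The other lines under DMSO were SHP-77, NCI-H510, COLO668 and NCI-H146 with 6 arrays each, NCI-H446 with 7, all at the same 3 days, and H69, H2171 and H1417 with 2 each at day 4. Per the labels, all cells grew in RPMI with serum and were taken over multiple passages. The series also holds 552A arrays of the same lines, 7 of NCI-H526 and 45 in all. The treatment protocol names DMSO and GSK2879552, which inhibits LSD1, a histone demethylase, but no label says that 552A stands for it.

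SCLC cells usually carry a neuroendocrine program, with regulators such as INSM1 and with secretory granule and synaptic vesicle proteins. A minority of tumours instead carry the program of the tuft cell, a rare chemosensory cell of the airway and gut epithelium. Its master regulator is POU2F3, a POU domain factor that binds the octamer sequence in DNA and works with the coactivators POU2AF2 and POU2AF3. Tuft cells signal through phospholipase C and calcium and make acetylcholine and eicosanoids, lipid mediators derived from arachidonic acid.

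Each value below is a log2 signal of HG-U133 Plus 2.0 arrays, which measure polyadenylated RNA with sets of short probes. The replicates of a day and then the days of a line were averaged, so that each line had 1 value. A difference is NCI-H526 minus the mean of the 8 other lines, with the standard error (SE) of a limma fit. NCI-H526 is a single line in that fit and was assumed to vary as the other 8 did. Because that contrast chose the line, its differences describe NCI-H526, and tests are given for the 552A arrays and for culture time. Whether the arrays of a group stem from different cultures is not labelled, so p-values over arrays measure a spread that may be technical. A signal below 6.09, the median lower quartile of the DMSO arrays, was called dim, and a difference from a dim level may be a lower limit. Probe sets differ in their response, so levels are compared between lines and not between genes.

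POU2F3 itself read 12.81 and 12.45 on the NCI-H526 arrays of day 2, 12.55 and 12.53 at day 4, and 12.21 and 12.32 at day 7. The 8 other line means lay between 4.54 in NCI-H510 and 4.79 in H1417, with a median of 4.64. Every NCI-H526 array was thus far above every other line, by 7.82 ± 0.20 (SE) in the mean. In bulk RNA a level cannot tell the share of cells with a gene from its RNA per cell. GFI1B, a zinc finger repressor that recruits LSD1 through its SNAG domain, read 11.57 to 11.67 on the 6 NCI-H526 arrays, with a median of 11.60. The other lines read 7.01 to 7.45 with a median of 7.17, and the difference was 4.43 ± 0.22. These are the values that singled out the line, so no p-value is given for either gene. In both, NCI-H526 was well apart from all other lines, and no second line was intermediate.

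The 2 markers stood in a wider set. Of 14918 genes tested, 80 (0.536%) were called higher in NCI-H526 at an adjusted p below 0.05 and 6 (0.0402%) lower. POU2F3 and GFI1B are among the 80, but since they chose the line, their calls are not read as a test. An adjusted p here is limma's, with Benjamini-Hochberg adjustment over all tested genes. A call in this contrast sorts genes for description, here and in the lists below, and is not read as a test. Of the 80, 40 passed the filter on dim signals only through NCI-H526, so they had to be higher there, and 25 had a dim mean in the other lines. With a filter on the mean over all 9 lines, 19 genes were called higher and 3 lower. All 86 lay outside the range of the other 8 line means on each of the 6 NCI-H526 arrays. Over all tested genes the NCI-H526 mean lay above that range in 1547 (10.4%) and below it in 1674 (11.2%). The difference was positive in 6889 genes and negative in 8029. List counts below are to be read against these shares, and against the 0.536% and 0.0402% called. At such shares of calls, a list without a call is not a result about its members. NCI-H526 was not the line with the most genes of its own. It had 64 genes at least 2 log2 units above all other lines, against 73 in SHP-77, 70 in NCI-H446 and 15 to 57 in the other 6 lines. The calls lean towards genes on which the other lines were alike. The median SD over the 8 other lines was 0.24 for the called genes and 0.47 for all tested genes, and 94 genes differed by 4 log2 units or more, of which 25 were called.

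The tuft cell regulators had 9 tested members, among them POU2F3 and GFI1B, by which the line was chosen. Of the other 7, POU2AF2 and SPIB were called higher and 5 lay above the range of the other lines. The median difference of these 7 was 3.74, against -0.04 over all tested genes. POU2AF2, a coactivator of POU2F3, read 12.49 to 12.65 on the NCI-H526 arrays with a median of 12.56, while the other lines read 7.46 to 8.01 with a median of 7.73. The groups did not overlap, and the difference was 4.82 ± 0.24. SPIB, an ETS factor found in tuft cells and B cells, read 10.18 to 10.83 with a median of 10.30 in NCI-H526, against 7.33 to 7.71 in the other lines, and differed by 2.88 ± 0.21.

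HMX2, a homeobox factor, was also above every other line, at 12.61 to 12.85 in NCI-H526 against 5.63 in SHP-77 to 9.22 in NCI-H446, and differed by 5.11 ± 1.39. ASCL2, a basic helix-loop-helix factor of intestinal stem cells that marks the tuft subtype, read 12.20 to 12.45 in NCI-H526, against 6.75 in NCI-H446 to 10.61 in H1417. SOX9, a progenitor factor, read 12.25 to 12.56 in NCI-H526, against 6.20 in H1417 to 10.74 in NCI-H446. These 3 lay above the range without being called, since the other lines differed widely among themselves. The remaining coactivators were not highest in NCI-H526. POU2AF3 averaged 9.20 in NCI-H526, below 10.78 in COLO668, 10.09 in H2171 and 10.03 in H69. POU2AF1, the B cell coactivator, averaged 5.88 in NCI-H526, a dim signal, against 12.54 in NCI-H446, 12.01 in H2171 and 11.52 in COLO668. The related POU factor POU2F2, known from B cells, averaged 8.02 in NCI-H526 and 8.31 ± 0.21 (SD, n = 8) in the other lines.

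**Figure D1:**
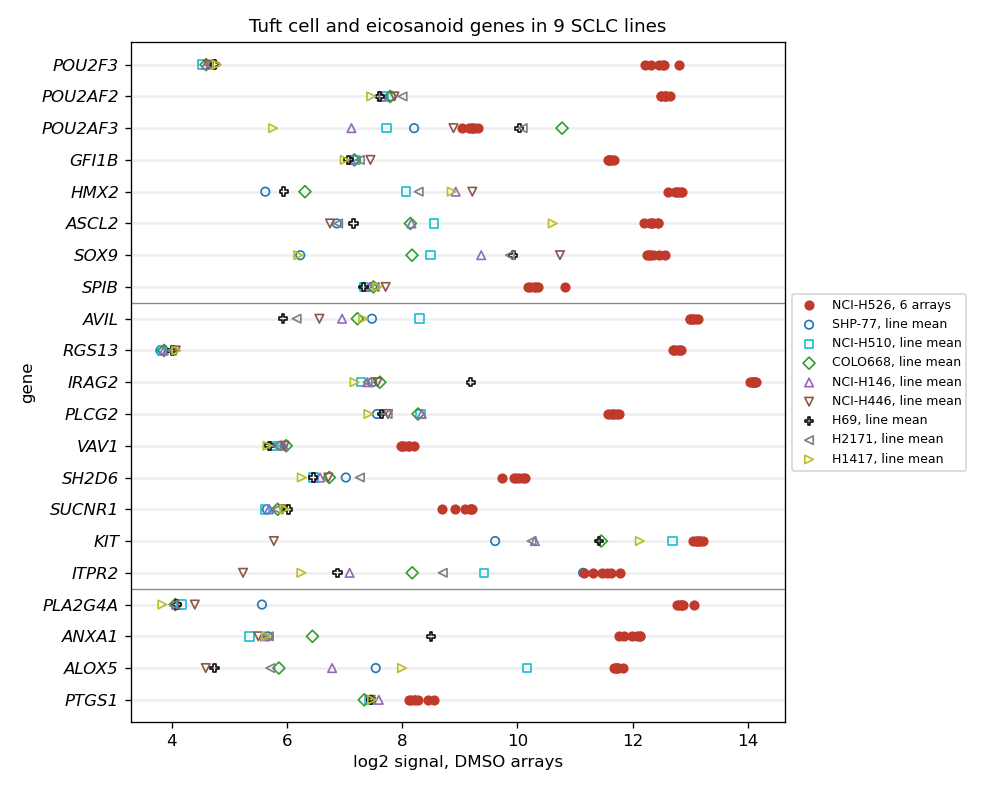
Log2 signals of tuft cell regulators (top), tuft cell effectors (middle) and eicosanoid genes together with ANXA1 (bottom), which is not on the eicosanoid list. Filled points are the 6 NCI-H526 DMSO arrays and open symbols the DMSO mean of each other line. POU2F3 sits between 12.21 and 12.81 in NCI-H526, against 4.54 to 4.79 in the other lines, while POU2AF3 lies among the other lines.

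Tuft cell effectors, the signalling and structural genes of the cell, showed a similar picture with more exceptions. Of 19 tested members 7 were called higher, 10 lay above the range of the other lines and 1 below, with a median difference of 2.65. Over all 24 members with a probe set, those under the filter included, the median was 1.98. RGS13, SH2D6, VAV1 and SUCNR1 passed the filter only through NCI-H526 and so had to be higher there. Without these 4, 3 of 15 were called, 6 lay above the range and the median was 1.92. AVIL, which encodes advillin, an actin-binding protein of the tuft cell's microvilli, read 12.99 to 13.13 on the NCI-H526 arrays with a median of 13.05. The other lines read 5.93 in H69 to 8.30 in NCI-H510, so the groups did not overlap and differed by 6.06 ± 0.74, or by 3.80 with the mean of all its probe sets. RGS13, a regulator of G protein signalling, showed the largest difference of all tested genes. It read 12.69 to 12.83 with a median of 12.76 in NCI-H526, against 3.81 to 4.08 with a median of 3.94 in the other lines, where it was dim in all 8, and differed by 8.82 ± 0.21.

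IRAG2, a membrane protein of the endoplasmic reticulum, read 14.04 to 14.13 in NCI-H526, against 7.18 in H1417 to 9.19 in H69. Signal transducers followed. PLCG2, a phospholipase C, read 11.57 to 11.76 in NCI-H526 and 7.42 to 8.34 in the other lines, a difference of 3.79 ± 0.39. The guanine nucleotide exchange factor VAV1 differed by 2.23 ± 0.21, the SH2 domain protein SH2D6 by 3.29 ± 0.36 and the succinate receptor SUCNR1, a sensor of intestinal tuft cells in mouse, by 3.23 ± 0.23. Each of these was above all 8 other lines on all 6 NCI-H526 arrays.

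Several classical tuft genes set NCI-H526 less apart. KIT, a receptor tyrosine kinase, averaged 13.13 in NCI-H526 but was also 12.69 in NCI-H510 and 12.13 in H1417. IL17RB, a receptor of IL-25, averaged 12.62 in NCI-H526, and COLO668 was next at 11.02. The calcium channel ITPR2 averaged 11.48 in NCI-H526, close to 11.14 in SHP-77. The microtubule-associated kinase DCLK1, a tuft marker in mouse, averaged 11.58 in NCI-H526 and was matched by 11.69 in NCI-H146. IL25, the cytokine that tuft cells release, averaged 8.11 in NCI-H526, just under the 8.13 to 8.47 of the other lines. The cation channel TRPM5, which ends the taste-like signalling chain, stayed under the filter, at 6.79 in NCI-H526 against 6.13 to 6.38 in the other lines. CHAT, which makes acetylcholine, was also under the filter, at 6.91 in NCI-H526 against 6.28 to 6.71. Both were above all 8 other lines, by less than 1 log2 unit in the mean. GNG13, a G protein subunit of taste cells, averaged 7.33 in NCI-H526 against 5.12 to 5.44, while GNAT3 and HTR3C, also under the filter, lay within the range of the other lines.

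Eicosanoid genes were few. Of 13 listed members 6 were tested, and PLA2G4A, which passed the filter only through NCI-H526, was the 1 called. PLA2G4A, the cytosolic phospholipase A2 that releases arachidonic acid, read 12.78 to 13.06 with a median of 12.85 in NCI-H526, against 3.84 to 5.57 in the other lines, where SHP-77 was the highest, and differed by 8.59 ± 0.54. ALOX5, the 5-lipoxygenase that starts leukotriene synthesis, averaged 11.73 in NCI-H526, against 4.59 in NCI-H446 to 10.17 in NCI-H510. PTGS1, the cyclooxygenase of tuft cells, averaged 8.29 in NCI-H526 against 7.34 to 8.16, a difference of 0.75 ± 0.30. That value depends on the probe set, at 2.16 with the mean of all probe sets and 3.01 under a stricter filter. ANXA1, a calcium-dependent phospholipid-binding protein, is not on the eicosanoid list and is counted below with the YAP and mesenchymal genes. It read 11.76 to 12.13 in NCI-H526, against 5.36 to 6.45 in 7 lines and 8.50 in H69. The median difference of the 6 tested eicosanoid genes was 1.37, and of all 13 with a probe set 0.15.

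The DNA just before the starts of the called genes was searched on both strands for ATGCAAA, the first 7 letters of the octamer ATGCAAAT. RefSeq promoter sequences (GRCh38.p14) were at hand for 58 of the 80 genes called higher and for 11897 of all tested genes, with some genes having several. The 250 bases before the start held ATGCAAA in 8 of the 58 (13.8%) and in 486 of the 11897 (4.08%). Counted over promoters, it was in 9.64% of 83 and in 3.03% of 17336. The full ATGCAAAT, each copy of which also holds ATGCAAA, was in 4 of the 58 (6.90%), namely ART5, AZGP1, KCNN3 and SUCNR1, and in 213 (1.79%) of all. A match is a description of these letters and not a binding site. The base composition of the promoters was not compared, and why the shares differ was not tested. Of the matching genes, RGS13, SUCNR1, AZGP1 and ERAP2 passed the filter only through NCI-H526. The called genes come from the contrast that chose the line, and the share without genes that passed in this way was not counted. The 8 windows are shown because they belong to genes called higher, RGS13, IRAG2 and AVIL among them. Each is 60 bases, 5′ to 3′ on the gene's strand, with ATGCAAA or its reverse complement in capitals.
RGS13 (chr1:192636085-192636144, + strand): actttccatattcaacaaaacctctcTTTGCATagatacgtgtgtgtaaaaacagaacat
AVIL (chr12:57818747-57818806, - strand): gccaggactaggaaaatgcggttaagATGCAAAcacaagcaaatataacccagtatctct
IRAG2 (chr12:25052612-25052671, + strand): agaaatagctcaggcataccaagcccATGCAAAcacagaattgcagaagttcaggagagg
SUCNR1 (chr3:151873557-151873616, + strand): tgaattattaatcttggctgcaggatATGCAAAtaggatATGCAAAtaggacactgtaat
AZGP1 (chr7:99976182-99976241, - strand): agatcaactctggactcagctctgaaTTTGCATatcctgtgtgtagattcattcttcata
KCNN3 (chr1:154859917-154859976, - strand): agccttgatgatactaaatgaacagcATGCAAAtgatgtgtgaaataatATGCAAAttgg
ERAP2 (chr5:96876419-96876478, + strand): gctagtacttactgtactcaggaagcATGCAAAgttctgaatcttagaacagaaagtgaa
ART5 (chr11:3642558-3642617, - strand): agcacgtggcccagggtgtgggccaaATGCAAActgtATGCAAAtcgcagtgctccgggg

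The copies lay 36 bases before the start in RGS13, 46 in AVIL, 55 in ERAP2, 60 in SUCNR1, 68 in IRAG2 and 74 in KCNN3, counted to the first letter of the match nearest the window's left end. In AZGP1 and ART5 it was further away, at 184 and 212 bases.

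Outside the tuft lists, the largest differences were spread over genes of varied kinds. LINC00545, a long noncoding RNA, averaged 13.91 in NCI-H526 against 6.09 ± 0.13 (SD, n = 8) in the other lines. CLRN3, a clarin family membrane protein, differed by 6.57 ± 0.23, AZGP1, a secreted zinc-binding glycoprotein, by 5.90 ± 0.22, LANCL3 by 5.54 ± 0.37 and PSD2 by 5.28 ± 0.20. TFAP2C, an AP-2 family factor of epithelial and germ cells, read 11.89 to 12.01 in NCI-H526, against 6.38 in NCI-H510 to 8.55 in NCI-H146. The homeobox factor EN2 read 9.85 to 10.58 in NCI-H526, against 5.25 to 6.97 in the other lines, and the serine protease TMPRSS3 differed by 4.53 ± 0.54. The epithelial ETS factor EHF averaged 9.92 in NCI-H526 and at most 7.22 elsewhere.

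Genes known from blood cells were also among those called higher. They were picked out after their values were seen. MYB, a regulator of blood progenitors, read 14.06 to 14.22 in NCI-H526, against 8.77 in NCI-H446 to 10.94 in H1417. CD69, an early activation marker of lymphocytes, averaged 8.79 in NCI-H526 against 4.43, TNFSF8, the ligand of CD30, 11.01 against 7.45, LILRB1, an inhibitory receptor for class I molecules, 9.96 against 7.98, and PIK3R5, a subunit of PI3 kinase gamma, 9.80 against 7.48. The B cell genes CD79B, at 8.50 in NCI-H526 against 7.10 to 7.45, and IGKC, at 8.15 against 6.49 to 6.86, were called higher too. CD69 and IGKC passed the filter only through NCI-H526. The listed markers of immune cells were within the range of the other lines or below it. PTPRC, which encodes the leukocyte antigen CD45, averaged 4.59 in NCI-H526, a dim signal, against 4.59 to 5.37 in the other lines, CD3E 7.49 against 7.51 to 7.91, and CD3D 7.42 against 7.09 to 7.58. Of 18 immune, fibroblast and endothelial markers with a probe set, 9 were tested and none was called in either direction. Their summed log2 signals were 118 to 119 on the NCI-H526 arrays and 117 to 132 on the arrays of the other lines.

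The neuroendocrine program was not absent from NCI-H526. INSM1, the zinc finger regulator that defines neuroendocrine SCLC, read 12.25 to 12.44 with a median of 12.37 in NCI-H526. The other lines read 13.05 in COLO668 to 13.80 in H69, so every NCI-H526 array was below all of them, by 1.11 ± 0.28 in the mean. CHGA, the granule protein chromogranin A, averaged 11.48 in NCI-H526, within the 10.78 to 13.57 of the other lines. NCAM1, an adhesion molecule used to diagnose SCLC, read 11.94 to 12.06 in NCI-H526 against 10.74 to 12.77. DLL3, an inhibitory Notch ligand, averaged 9.39 against 7.80 to 10.91, and SYP, which encodes the vesicle protein synaptophysin, 8.08 against 7.66 to 8.09.

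Other neuroendocrine factors lay on both sides. Of 28 tested members of that list none was called, and the median difference was -0.39. A positive difference was seen in 10 of the 28, against 6889 of all 14918 tested genes. Above the range of the other lines lay 2 and below it 5, against 10.4% and 11.2% of all tested genes. NKX2-1, the lung lineage homeobox factor, averaged 4.62 in NCI-H526, against 5.07 in NCI-H146 and 9.26 to 11.85 in the other 7 lines. SOX11, a neural progenitor factor, read 5.73 to 6.34 in NCI-H526 against 9.05 to 12.61, and the groups did not overlap. SOX2, its relative in foregut progenitors, averaged 5.15 in NCI-H526 and was also low in COLO668 at 4.87 and in H2171 at 5.40. ISL1, a LIM homeobox factor of neurons and islet cells, averaged 5.81 in NCI-H526 and 5.78 in NCI-H446, against 7.44 to 13.47 in the rest.

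Secretory and neuronal genes had a negative difference in 38 of 50 tested members. Of the 50, 1 was called lower, 16 lay below the range of the other lines and 1 above it, with a median difference of -0.83. The 1 called was SYT4, a synaptotagmin of dense core vesicles, which read 5.55 to 5.95 with a median of 5.78 in NCI-H526, against 10.04 in H1417 to 12.90 in SHP-77, a difference of -5.51 ± 0.82. DDC, the decarboxylase that makes dopamine and serotonin, averaged 6.51 in NCI-H526, with NCI-H446 at 7.15 and H2171 at 8.45 and the other 6 lines at 12.83 to 13.87. GRP, the bombesin-like peptide that SCLC cells secrete, averaged 5.61 in NCI-H526, and 6.21 in H2171 and 6.41 in NCI-H446, against 9.37 to 13.61 in the rest. ELAVL4, a neuronal RNA-binding protein, averaged 6.37 against 8.75 to 12.71. GAL, the neuropeptide galanin, went the other way, at 12.49 in NCI-H526 against 6.08 in COLO668 to 12.22 in NCI-H510.

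**Figure D2:**
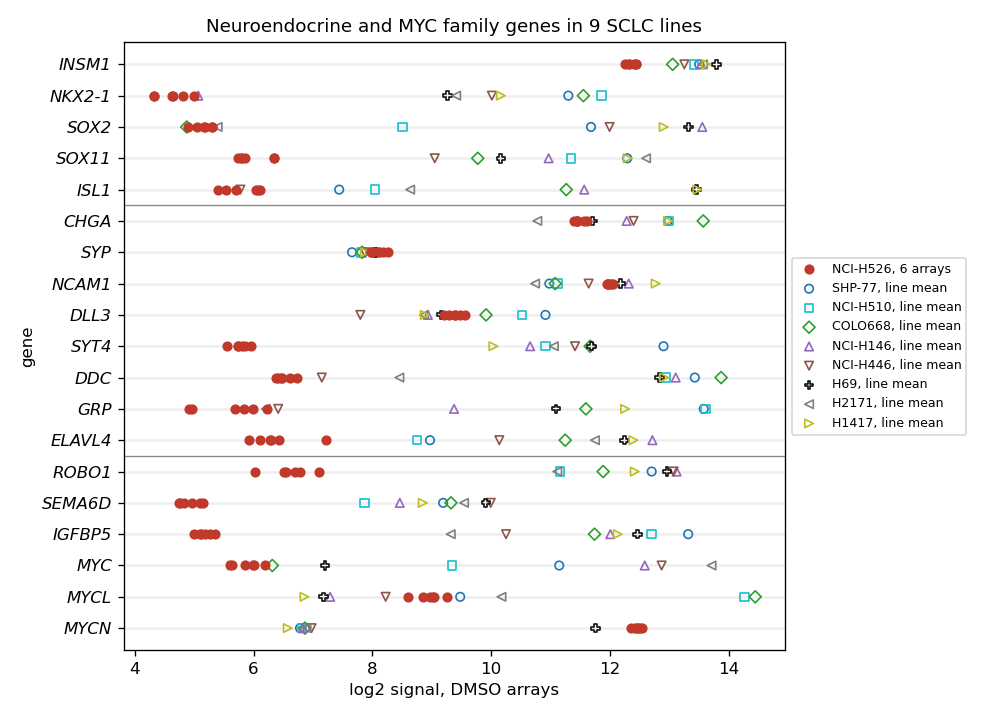
Log2 signals of neuroendocrine factors (top), secretory and neuronal genes (middle) and ROBO1, SEMA6D, IGFBP5 and the MYC family (bottom), with filled points for the 6 NCI-H526 DMSO arrays and open symbols for the DMSO means of the other lines. INSM1 and SYT4 of NCI-H526 lie below every other line, at 12.25 to 12.44 and 5.55 to 5.95, while CHGA, NCAM1 and DLL3 lie among the other lines.

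The 6 genes called lower were ROBO1, SYT4, PBX3, SEMA6D, GALNT1 and ZNF280B. ROBO1, a receptor for the axon guidance protein SLIT, read 6.02 to 7.10 with a median of 6.62 in NCI-H526, against 11.11 in H2171 to 13.12 in NCI-H146, and the difference was -5.69 ± 0.80. SEMA6D, a semaphorin, read 4.75 to 5.15 in NCI-H526 against 7.87 to 9.99, and with the mean of all its probe sets it was not called. PBX3, a homeodomain partner of HOX proteins, averaged 6.46 against 9.04 to 11.39, GALNT1, which starts O-linked glycans, 7.88 against 10.81 to 12.11, and the zinc finger gene ZNF280B 6.00 against 8.49 to 9.16. IGFBP5, which binds insulin-like growth factors in the medium, averaged 5.17 in NCI-H526, against 9.32 in H2171 to 13.32 in SHP-77, a difference of -6.57 ± 1.26 that was not called and was -2.26 with the mean of all its probe sets. IGFBP2 averaged 8.43 in NCI-H526 against 9.98 to 12.93.

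Among the 3 MYC genes, NCI-H526 carried MYCN. MYCN read 12.36 to 12.54 in NCI-H526 and 11.76 in H69, against 6.58 to 6.98 in the other 7 lines. MYC averaged 5.88 in NCI-H526, near 5.64 in H1417 and 6.32 in COLO668, against 7.20 in H69 and up to 13.71 in H2171. MYCL averaged 8.95 in NCI-H526, inside the range of 6.86 to 14.44. None of the 12 tested members of the MYC and MAX list was called, and 4 lay above the range of the other lines.

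The genes beside MYCN on chromosome 2 were then read in the order of the RefSeq annotation (GRCh38.p14), a choice made after the values were seen. MYCN is amplified in a share of SCLC, and DNA copies were not measured on these arrays. NBAS averaged 11.83 in NCI-H526 against 9.12 to 10.20 in the other lines, and DDX1, an RNA helicase often co-amplified with MYCN, 14.86 against 12.39 to 13.43. On the other side CYRIA averaged 10.88 in NCI-H526 against 6.09 to 7.37. H69, the other MYCN line, was not high for these neighbours, at 9.12 for NBAS, 12.46 for DDX1 and 6.25 for CYRIA, though MYCNOS, the antisense RNA of MYCN, was 12.15 in H69 and 11.25 in NCI-H526. Beyond them, LRATD1 averaged 9.05 in NCI-H526 against 8.40 to 13.16, VSNL1 9.19 against 7.07 to 10.63 and SMC6 10.29 against 10.76 to 12.11, so the run of 5 tested genes with a higher signal ended on both sides. MYCNOS and MYCN overlap, and their probe sets may share signal.

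**Figure D3:**
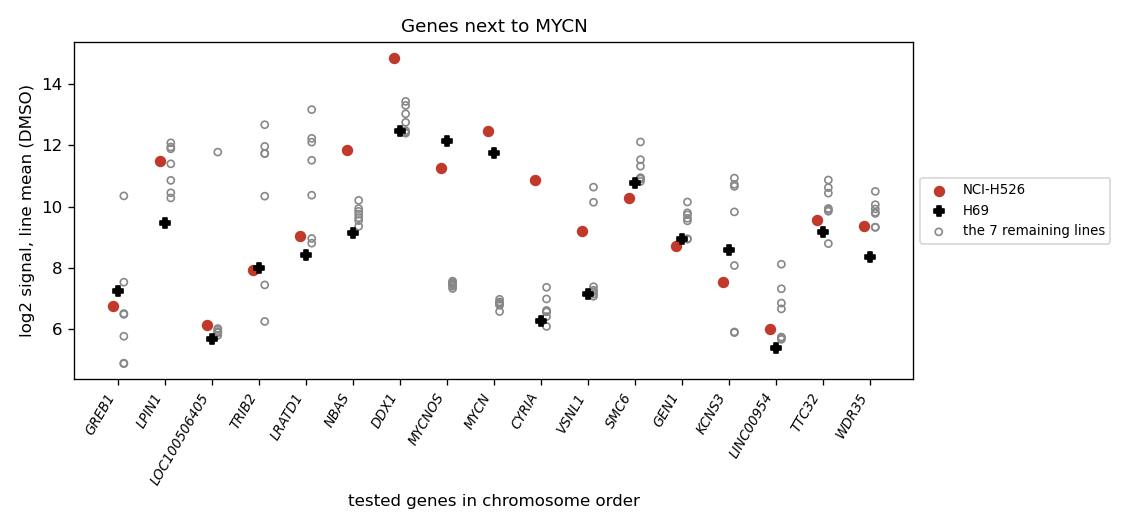
Log2 DMSO line means (y axis) of MYCN and its tested neighbours, in chromosome order (x axis). NCI-H526 stands above the 7 remaining lines from NBAS to CYRIA, while H69 does so for MYCNOS at 12.15 and MYCN at 11.76 only.

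Of the regulators tied to LSD1, some lay within the range of the other lines and some outside it. KDM1A, which encodes LSD1, averaged 12.38 in NCI-H526, within 11.44 to 12.74 in the other lines. GFI1, the relative of GFI1B, averaged 6.97 in NCI-H526, at the low end of 6.95 to 8.26. The LSD1 list had 24 tested members, among them GFI1B, by which the line was chosen. Of the other 23 none was called, 5 lay above the range of the other lines and 3 below, against 10.4% and 11.2% of all tested genes. Those below were INSM1, SNAI2 and TAL1. Their median difference was 0.13, or 0.17 with GFI1B. OVOL1, an epithelial repressor with a SNAG domain, averaged 10.34 in NCI-H526 against 7.06 to 8.56. LMO2, a LIM adaptor of blood progenitors, averaged 10.64 against 7.16 to 10.59, and ZNF217 9.38 against 4.86 to 9.32, both just above the highest line.

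Of 28 tested epithelial genes none was called, 26 had a positive difference, 2 lay above the range of the other lines and none below, with a median of 0.82. CDH1, or E-cadherin, averaged 13.02 in NCI-H526, level with 13.08 in NCI-H510 and above 4.66 in SHP-77 and 4.72 in NCI-H446. In the list of YAP and mesenchymal genes 2 of 32 tested members were called higher and none lower. Of the 32, 8 lay below the range of the other lines and 3 above it, with a median of -0.61, or -0.19 over all 36 with a probe set. TWIST1, a mesenchymal factor, read 4.89 to 5.47 in NCI-H526 against 7.30 to 11.20. FN1, or fibronectin, averaged 5.95 against 6.05 to 10.80. The 2 called higher, ANXA1 and the caveolin CAV2, and LGALS3, a galectin at 11.64 against 6.28 to 10.88, went the other way. CAV2 passed the filter only through NCI-H526 and so had to be higher there. Without CAV2, 1 of 31 was called and the median was -0.68. YAP1 stayed under the filter at 6.87 in NCI-H526 against 5.62 to 6.38.

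Of 19 tested class I antigen presentation genes 9 lay above the range of the other lines and none below, 1 was called higher, and the median difference was 0.78. PSMB9, a subunit of the immunoproteasome, read 10.71 to 11.01 in NCI-H526, against 9.38 in COLO668 and 5.91 to 7.21 in the other 7 lines. HLA-B, a class I heavy chain, averaged 13.85 in NCI-H526 against 9.12 in H2171 to 13.11 in COLO668, and TAP1, which carries peptides into the endoplasmic reticulum, 10.93 against 7.49 to 9.55. Class I heavy chain genes are near copies of each other, so their probe sets may share signal. ERAP2, which trims the peptides, was the 1 called, with an average of 7.91 in NCI-H526 against 4.78 to 5.95. It passed the filter only through NCI-H526 and so had to be higher there. Without ERAP2, 0 of 18 were called, 8 lay above the range and the median was 0.72. B2M, the light chain of class I, averaged 13.45, inside 10.00 to 14.03.

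Of the HOX genes, which pattern the body axis, some were higher and some lower. Of 27 tested members 11 lay above the range of the other lines and 2 below, 1 was called higher, and the median difference was 1.03, or 0.60 over all 28 with a probe set. From the HOXC cluster, HOXC12 was the 1 called, at 8.45 to 8.82 in NCI-H526 against 5.96 to 6.17. It passed the filter only through NCI-H526 and so had to be higher there. Without the 2 members that passed in this way, 0 of 25 were called, 9 lay above the range and the median was 0.17. HOXC10 averaged 11.41 in NCI-H526 against 7.26 to 10.03, HOXC6 12.21 against 5.18 to 11.27 and HOXC4 10.78 against 7.69 to 9.82. HOXC8 was not part of it, at 7.44 against 7.22 to 7.85. From the HOXB cluster, HOXB7 averaged 6.85 in NCI-H526 against 7.25 to 11.39.

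The remaining lists held few or no calls. HES2, a transcriptional repressor related to the Notch targets, was the only one of 26 tested Notch pathway genes called, at 9.78 in NCI-H526 against 7.87 to 8.44, and MAML3, a Notch coactivator, averaged 8.32 against 9.66 to 10.91. No member was called among 30 cell cycle, p53 and death genes, where 6 lay above the range and CDKN1C, a CDK inhibitor, averaged 11.51 against 6.41 to 9.32. None was called among 18 IGF pathway genes, 30 receptor tyrosine kinases, 10 cholinergic genes and 17 DNA methylation genes. DNMT3B, a de novo DNA methyltransferase, was the only DNA methylation gene outside the range, at 7.74 to 8.19 in NCI-H526 against 8.89 to 10.45.

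**Figure D4:**
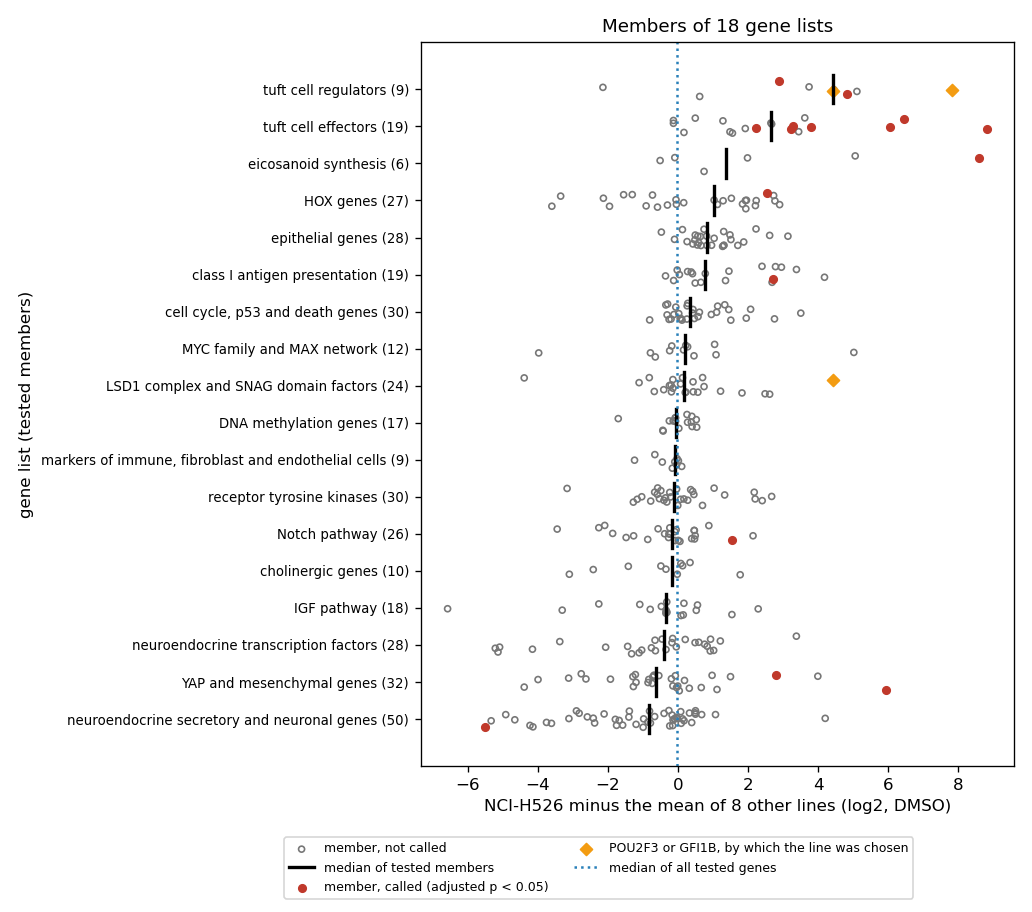
Difference of NCI-H526 from the mean of the 8 other lines (x axis, log2, DMSO) for each tested member of 18 gene lists (rows, sorted by median, with the number tested). Filled points were called, diamonds are POU2F3 and GFI1B, which chose the line, and bars are list medians. The bars run from 4.43 for tuft cell regulators, POU2F3 and GFI1B included, to -0.83 for neuroendocrine secretory and neuronal genes.

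The 552A arrays were not used in the choice of the line, and the same contrast was tested in them. The lines are the same and were treated, so this repeats the measurement and adds no line. In these arrays 52 genes (0.349%) were called higher in NCI-H526 and 1 (0.0067%) lower. Of the 52, 32 had passed the filter, which used the DMSO arrays, only through NCI-H526, so their direction was not open. Of the 86 genes called in the DMSO arrays 49 were called again, which is 57% of the DMSO calls and 92.5% of the 552A calls. All 86 kept their sign, and 84 lay outside the range of the other lines in the 552A arrays. Of these 86, 40 had passed the filter only through NCI-H526, and POU2F3 and GFI1B chose the line, so their direction was not open. The share of all tested genes that kept their sign was not counted.

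Every tuft cell regulator and effector called in the DMSO arrays was called there too, POU2F3 and GFI1B set aside. POU2AF2 averaged 12.65 in NCI-H526 and 7.77 in the other lines, a difference of 4.89 ± 0.22 (SE, limma adjusted p = 1.12e-05). RGS13, SH2D6, VAV1 and SUCNR1, and the eicosanoid gene PLA2G4A, passed the filter only through NCI-H526, so their direction was not open. RGS13 differed by 8.36 ± 0.22 and PLA2G4A by 8.29 ± 0.61, given without a test. AVIL differed by 5.93 ± 0.60 (adjusted p = 0.00253), IRAG2 by 6.40 ± 0.56 (adjusted p = 0.00104) and SPIB by 2.06 ± 0.22 (adjusted p = 0.00428). Without POU2F3, GFI1B and the genes that passed only through NCI-H526, the median difference was 2.88 for 7 tuft regulators and 1.62 for 15 effectors, against -0.05 over all tested genes. The median of the neuroendocrine secretory genes was -0.84 and none of the 50 was called, SYT4 included at -5.30 ± 1.05 (adjusted p = 0.126).

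ZNF280B was the 1 gene called lower in both arms, at -2.82 ± 0.36 in the 552A arrays (adjusted p = 0.0122). ROBO1 and GALNT1 were not called there. ROBO1 differed by -3.72 (adjusted p = 0.298) and GALNT1 by -1.92 (adjusted p = 0.343). Within NCI-H526, both were higher under 552A than under DMSO, by 1.76 ± 0.08 for ROBO1 (limma adjusted p = 4.07e-25) and by 1.61 ± 0.10 for GALNT1 (adjusted p = 2.64e-19). IGFBP2 rose by 3.80 ± 0.09 under 552A in NCI-H526 (limma adjusted p = 5.82e-39), and averaged 12.23 there against 11.73 in the other lines under 552A. Of the genes above, LINC00545 fell by 1.11 on the log2 scale, PSD2 by 1.02, SH2D6 by 0.99, CLRN3 by 0.92 and SPIB by 0.82 (limma adjusted p at most 5.27e-11 for each). GFI1B rose by 0.51 and POU2AF3 by 1.06, while AVIL, IRAG2, PLCG2 and PLA2G4A gave values of -0.22 to -0.09 that did not pass the test. These responses share the NCI-H526 DMSO arrays with the contrast above.

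**Figure D5:**
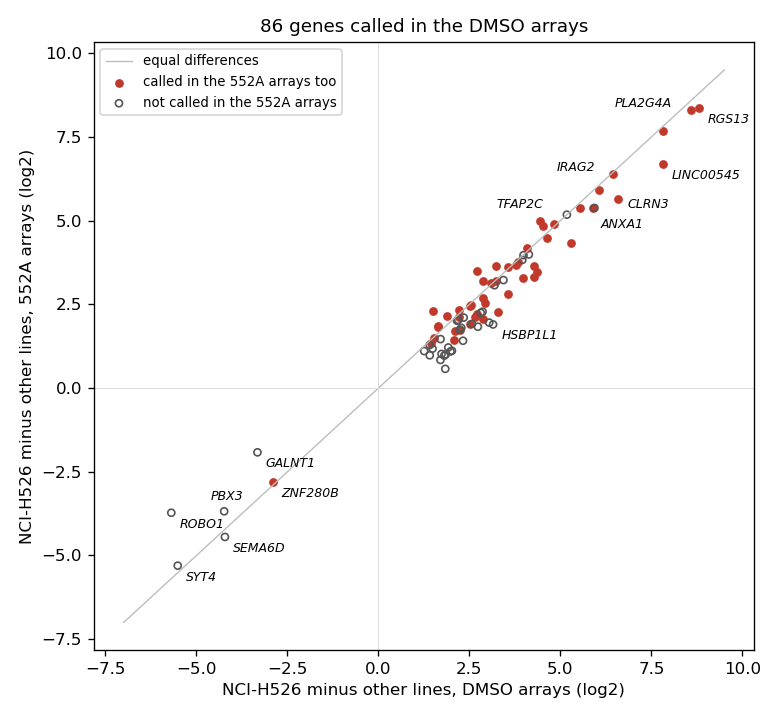
Differences of NCI-H526 from the other lines in the DMSO arrays (x axis) and in the 552A arrays (y axis), both log2, for the 86 genes called in the DMSO arrays, POU2F3 and GFI1B included. Filled points were called in both arms, and the line marks equal differences. All 86 points keep their sign, 40 of which passed the filter only through NCI-H526. ROBO1 and GALNT1 lie nearer to 0 in the 552A arrays.

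The effect of culture time was tested within NCI-H526. Day 7 minus day 2 in NCI-H526 under DMSO gave 0 called genes of 14918 (0% higher and 0% lower, limma, 2 arrays a day), with 285 at an unadjusted p below 0.05. Among the 80 genes called higher against the other lines the change over those days ran from -0.39 to 0.62, and POU2F3 changed by -0.37 ± 0.13 and GFI1B by 0.06. The 6 NCI-H526 arrays of a called gene had a median SD of 0.13 for the higher and 0.23 for the lower genes, against 0.08 for all tested genes. The 3′ over 5′ log2 difference of ACTB, which grows as RNA degrades, was -0.08 to -0.02 on the NCI-H526 arrays and -0.13 to 1.67 on the other DMSO arrays, with a median of 0.02. Without the 3 DMSO arrays in doubt, 2 with that difference above 0.8 and 1 of NCI-H446 with a narrow signal range, 82 genes were called higher and 8 lower, 85 of them also called with those arrays.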

How the data were processed

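The deposited values were log2 signals of 54675 probe sets on 88 arrays. The program that made them is not given in the sources used here, and array medians of 7.36 to 7.46 show a common scale. Symbols came from the platform annotation: 41091 probe sets had 1 symbol, 1801 several and 11721 none. Of 19775 genes with a probe set, 14918 had at least 1 probe set with a DMSO line mean above 7.41 and were tested. Each was read from the probe set with the highest mean among those that passed. _x_at probe sets, which can cross-hybridise, were used only where no other passed. A probe set could thus be used because NCI-H526 alone was high on it. The difference of NTRK2 was 2.41, and 0.59 without the filter. That of PAX2, a called gene, was 2.52, and 0.18 with a filter on the mean over all 9 lines. Line means were compared with limma 3.58.1 (R 4.3.3), with 7 residual degrees of freedom, two-sided, and p-values were adjusted by Benjamini-Hochberg over all tested genes. Culture time and 552A responses were fitted over arrays with 1 mean per line, treatment and day. Figures used matplotlib 3.10.9. The number of lines limits the precision of the line contrast, which has 1 value per line. The number of arrays limits that of the fits over arrays. In simulated data the line contrast recovered 79 of 100 genes changed by 4 log2 units and 96 of 100 changed by 8. There were 11 false calls. In the measured data 47 genes were higher by at least 4 log2 units, and 21 of them were called. Another 47 were lower by as much, and 4 of them were called. The simulated counts are therefore not read as the recovery or the false calls in the measured data.

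The members and lists were chosen with earlier results of these data known. Genes named are the fixed list, the 15 per direction with the largest difference among those called outside the range of the other lines, the 4 members per list with the largest absolute difference, and members named beside their list's count. The blood cell genes, the neighbours of MYCN and genes of the promoter search were added after their values were seen.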

Additional observations from a re-analysis of the deposited data

Results flagged for a closer look

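In 39 named genes, 78 groups of line means or NCI-H526 arrays were examined for a single value far from the rest, as the gap to the nearest value over the whole range. Chance flags about 1 in 20 groups, and 14 values were flagged, 11 among lines (limit 0.526) and 3 among arrays (limit 0.625). H69 stood above the rest of the 8 other lines for MYCN at 11.76 (gap share 0.923), IRAG2 at 9.19 (0.782) and ANXA1 at 8.50 (0.654). H1417 did so for EN2 at 6.97 (0.701) and ASCL2 at 10.61 (0.534). NCI-H146 was high for TFAP2C at 8.55 (0.813), H2171 for PTGS1 at 8.16 (0.69), SHP-77 for PLA2G4A at 5.57 (0.674) and NCI-H446 for LANCL3 at 5.22 (0.712). NCI-H446 was the lowest line for KIT at 5.78 (0.555) and PBX3 at 9.04 (0.529). Among NCI-H526 arrays, replicate 2 of day 2 was lowest for LINC00545 at 13.82 (0.687), replicate 1 of day 2 highest for PLA2G4A at 13.06 (0.647) and replicate 2 of day 7 lowest for RB1, the retinoblastoma gene, at 9.27 (0.731).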

How the results depend on the processing

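Of 86 genes called against the other lines under DMSO, 22 were called with a filter on the mean over all 9 lines, which removes genes high in NCI-H526 alone, and 54 with the 6 time course lines alone. Fitted over arrays, with the spread between replicate arrays, 11159 genes were called (45.9% of them higher, against 93.0%), and 11316 (46.1%) with the replicate block. Same-numbered arrays correlated by 0.0957 to 0.23 in their deviations, so the numbers were not taken as pairs. Leaving out 1 line gave 69 to 90 calls and leaving out 1 array 75 to 91. The 53 calls of the 552A arrays were 53 to 63 without 1 line. For day 7 minus day 2, limma called 0 genes, 0 with the replicate block (344 at an unadjusted p below 0.05), 1 after quantile normalization (FOXO1) and 0 to 5 without 1 array. Those were FOXO1, HK2, LGALSL and VEGFA without replicate 2 of day 2, FOXO1 without replicate 1 of day 7, and ELAVL4, H1-2, H1-4, H3C2 and H3C7 without replicate 2 of day 7. Of the named genes, 5 changed sign in some setting (CDH5, COL1A1, DLL3, IGF1R and REST), none of them called, and 21 called genes lost the call in at least 1 setting. When all probe sets per gene were averaged, the difference became -3.06 for NKX2-1, -3.41 for SOX2, -2.45 for SEMA6D, -1.11 for MAML3, 3.41 for NBAS and 1.46 for PIK3R5. The causes were not tested.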
